A study of Mus musculus with 6 samples.

Results

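The genes described here belong to the machinery with which an oocyte stores messenger RNA and holds back its translation. The list held 7 mouse genes, Ybx2, Cpeb1, Zar1, Btg4, Lsm14b, Eif4enif1 and Pabpc1l, and every probe that the platform annotation gives to one of them was taken, whatever its signal. This gave 12 probes for 6 of the genes, out of 45281 probes and 19053 named genes in all. Ybx2 had 3 probes, Lsm14b had 4, Eif4enif1 had 2, and Cpeb1, Btg4 and Pabpc1l had 1 each. No probe was assigned to Zar1, an RNA-binding protein that organises stored RNA in the oocyte, so it was not analysed here.

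The study hybridised total RNA of cells labelled as 2 kinds of germline stem cell to 6 Illumina bead arrays (Mouse WG-6 v2.0). Spermatogonial stem cells (SSC), which maintain sperm production, were taken from the testis at an age of 6 days. The female germline stem cells, or FGSC, were taken from the ovary at 3 days, all from CD1 mice and with 3 arrays for each. The labels name no transgene or treatment, and the steps of enrichment or culture are not given in the sources used here. Nothing says that replicates came from separate animals, cultures or pools. A p-value here therefore weighs a difference only against the spread among these arrays, which may be technical variation. The cell types also differ in organ, sex and age, which cannot be told apart. The design compared the expression profiles of the cell types.

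A growing oocyte makes far more messenger RNA than it translates. The transcripts are packed with RNA-binding proteins, keep short poly(A) tails, and are released for translation or destroyed when the oocyte matures. Ybx2, a cold-shock domain protein also called MSY2, coats and stabilises stored RNA in oocytes and in spermatids. Cpeb1 binds the cytoplasmic polyadenylation element of messenger RNAs and switches them from repression to translation. Lsm14b, of the RAP55 family, and Eif4enif1, the eIF4E transporter that occupies the cap-binding protein, belong to the repressing particles. Btg4 brings the CCR4-NOT deadenylase to maternal transcripts when they are destroyed. Pabpc1l is the poly(A)-binding protein of oocytes and early embryos.

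The arrays detected between 16198 and 18823 probes at a detection p-value under 0.05, which ranks a probe among the negative control beads. The median signal was 94.1 to 98.6, so a signal near 100 is background. FGSC replicate 3 stood apart from FGSC replicates 1 and 2: 218 of 18860 tested probes (1.16%) lay at least 2 log2 units below their mean there. None of the 12 probes broke the order between signal and detection p-value that 329 probes of the array broke. Levels below are normalized log2 signals, a difference is FGSC minus SSC on that scale with its standard error (SE), and p-values are limma's, adjusted by Benjamini-Hochberg over every probe tested. A probe was tested if it was detected on at least 3 of the 6 arrays, and called if its adjusted p was under 0.05.

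Ybx2, Cpeb1, Btg4, Lsm14b and Eif4enif1 were all measurable, and 9 of their 10 tested probes were higher in FGSC, from 1.39-fold to 6.52-fold. The other, the brightest Lsm14b probe, was not called with all arrays. Over all probes tested 59.0% were called, 29.4% higher and 29.6% lower, and all 3 FGSC levels lay above all 3 SSC levels in 34.1%, against 9 of the 10 probes here. The median difference of the 10 probes was 1.20, and that of all tested probes 0.0009. Of the 10, 1 Ybx2 probe was detected on no SSC array and passed the filter through FGSC alone. A further 3 were undetected on some SSC arrays and passed only with their FGSC detections. They were the Cpeb1 probe and Lsm14b probes ILMN_2613313 and ILMN_2782663. The Pabpc1l probe and 1 Lsm14b probe did not pass. These counts thus hold probes that entered through the group where they were high. They also do not cover all members, and are given as description.

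**Figure D1:**
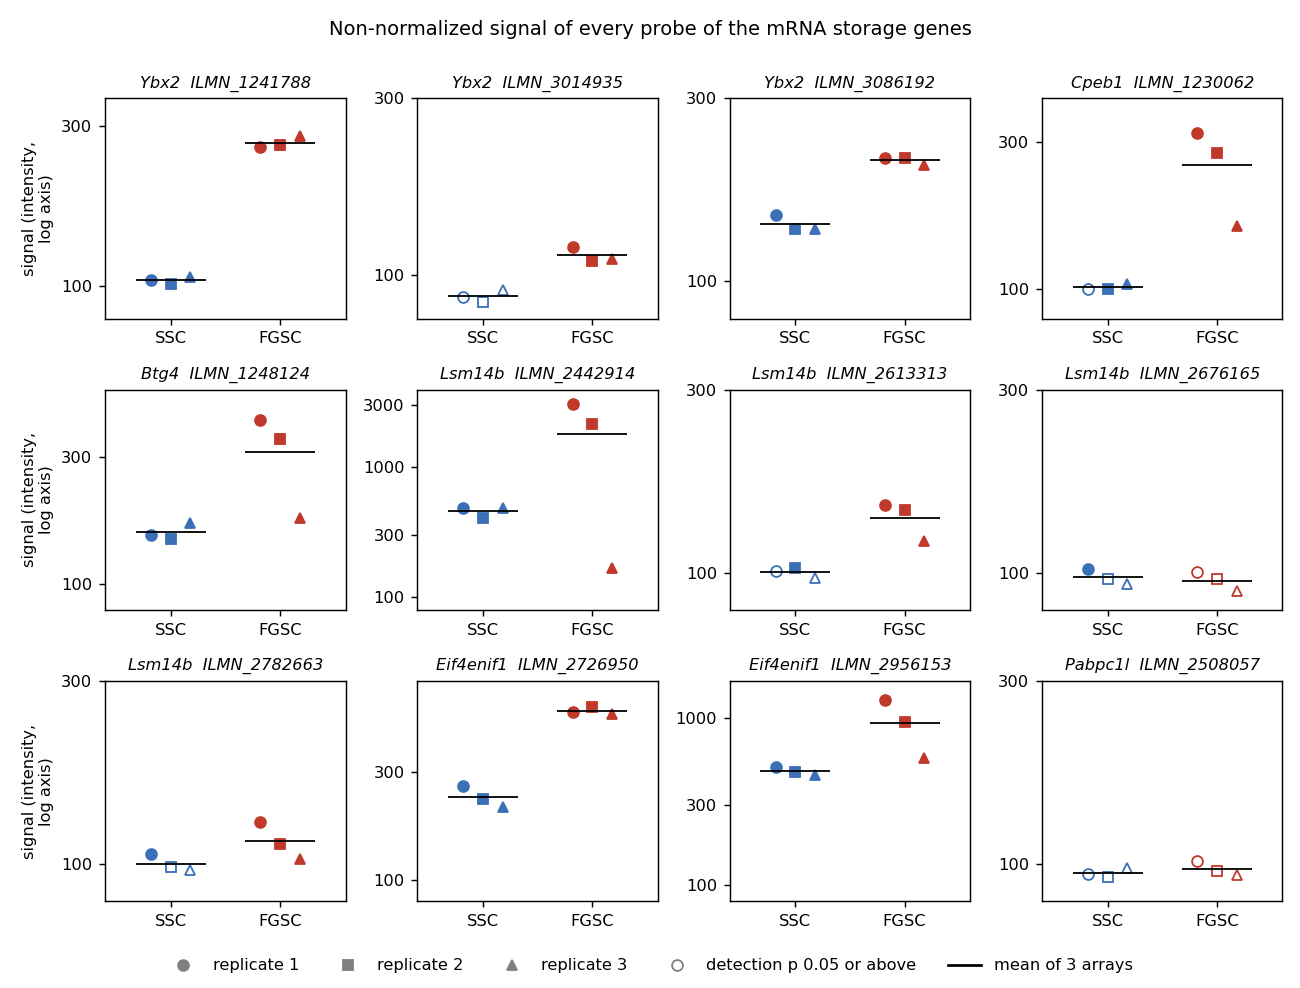
Non-normalized signal intensity on a log axis for each of the 12 probes, by group, with marker shape for the replicate, open symbols for a detection p-value of 0.05 or above, and a line at the mean of 3 arrays. The Ybx2 and Eif4enif1 probes separate the groups, while the third FGSC array (triangle) falls well below the other two for Cpeb1, Btg4, the brightest Lsm14b probe and Eif4enif1 ILMN_2956153.

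The upstream sequences of the genes were searched for the E-box, the CANNTG element bound by the oocyte transcription factor Figla among many others. Sequences were taken from RefSeq on mouse build GRCm38.p6, 250 bases before to 50 after each annotated start, which gave 11 windows for all 7 genes. Each of the 7 genes had an E-box on at least 1 window. Counted by window, an E-box was found in 7 of the 11, where 72.3% of 32851 windows of all genes held one. Its form CACCTG, read on either strand and contained in the E-box count, was found in 5 of the 11 windows, in Ybx2, Cpeb1, Btg4, Zar1 and Pabpc1l, against 20.2% of all windows. The homeobox letters TAATTG were in none of the 11 windows and in 8.0% of all windows. Likewise the letters TAATTA were in none and in 5.29%. The Y-box letters CTGATTGG, counted only in full, were in none and in 4.10%, each on either strand. The windows with CACCTG of the 3 genes with called probes are given below, with every E-box in capitals, on the strand of the gene.
Ybx2, chr11:69935649-69935948, plus strand: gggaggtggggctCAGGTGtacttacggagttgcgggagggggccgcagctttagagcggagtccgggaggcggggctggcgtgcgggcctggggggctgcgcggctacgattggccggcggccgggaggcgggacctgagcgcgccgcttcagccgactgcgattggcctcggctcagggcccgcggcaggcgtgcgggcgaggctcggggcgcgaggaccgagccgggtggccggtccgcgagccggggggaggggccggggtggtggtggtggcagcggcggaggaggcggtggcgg
Cpeb1, chr7:81454709-81455008, minus strand: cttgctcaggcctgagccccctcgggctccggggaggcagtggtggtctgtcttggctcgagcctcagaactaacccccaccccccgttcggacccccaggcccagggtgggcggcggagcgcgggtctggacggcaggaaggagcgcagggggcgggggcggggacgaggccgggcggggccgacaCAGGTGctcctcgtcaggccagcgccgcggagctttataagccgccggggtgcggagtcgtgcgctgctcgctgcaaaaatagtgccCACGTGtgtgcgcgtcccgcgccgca
Btg4, chr9:51115751-51116050, plus strand: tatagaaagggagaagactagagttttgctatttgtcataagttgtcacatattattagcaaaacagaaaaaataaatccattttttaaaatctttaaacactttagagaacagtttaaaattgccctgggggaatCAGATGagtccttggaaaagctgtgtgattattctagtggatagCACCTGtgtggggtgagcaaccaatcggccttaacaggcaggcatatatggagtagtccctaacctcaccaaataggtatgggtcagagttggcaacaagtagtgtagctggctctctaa

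In Ybx2 the E-box, read as CAGGTG, begins 237 bases before the start, in a window of 78.0% G and C. Cpeb1 holds CAGGTG 63 bases before the start and CACGTG at base 25 of the transcript, in a window of 72.7% G and C. Btg4 holds CAGATG 114 bases and CACCTG 70 bases before the start, and its window, at 39.0%, is the poorest in G and C of the 11. Lsm14b (chr2:180024737-180025036, plus strand) holds 1 E-box, CAAATG, and the first of 4 Eif4enif1 windows (chr11:3202103-3202402, plus strand) holds CAACTG. A match describes letters only and shows no binding.

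Ybx2 was higher in FGSC on each of its 3 probes, by differing amounts. Its probe ILMN_1241788 read 104, 101 and 107 on SSC replicates 1 to 3 and 261, 264 and 279.6 on FGSC replicates 1 to 3. The SSC signals were barely above background and the FGSC signals were alike on all 3 arrays. On the normalized scale the level was 4.90 ± 0.07 (SD, n = 3) in SSC and 7.61 ± 0.38 in FGSC. The difference was 2.70 ± 0.19 (SE), or 6.52-fold, with an adjusted p of 4.03e-05 from limma, and 1.08% of tested probes had a larger one. Because the SSC level lies near background, the size of the fold depends on the background correction.

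The other Ybx2 probes pointed the same way with smaller differences. Probe ILMN_3086192 was detected on all 6 arrays, at 148, 137 and 137 in SSC and 209.9, 209.9 and 201 in FGSC, and rose by 1.25 ± 0.12 (adjusted p = 0.000194). Probe ILMN_3014935 read 87.7, 85.0 and 91.2 in SSC, undetected on each of those arrays, and 119.5, 109.5 and 110.6 in FGSC, detected on each. In FGSC it was higher by at least 1.47-fold (adjusted p = 0.00136), where the bound sets each SSC array to its lowest detected level or the probe's own. On none of the 3 probes did the groups overlap.

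Cpeb1 was near background in SSC and clearly measured in FGSC. Its probe read 100.2, 99.8 and 104 in SSC, with detection p-values of 0.0801, 0.0363 and 0.00641, and 319, 275 and 159.9 in FGSC. The groups did not overlap, but the third FGSC array carried 0.538 times the mean signal of the first and second. Levels were 4.85 ± 0.06 (SD, n = 3) in SSC and 7.34 ± 0.52 in FGSC, a difference of 2.49 ± 0.25 (SE; adjusted p = 0.000210). Without FGSC replicate 3 it was 2.86 ± 0.10, against 2.56 ± 0.09 for Ybx2 ILMN_1241788. The order of these fitted values thus turned with that array, but no test compared the probes.

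Btg4 was detected on every array of either group. Its signals were 153, 148 and 169 in SSC and 412, 351 and 177 in FGSC. The third FGSC array lay close above the highest SSC array, and on the normalized scale the gap between the groups was 0.50. Levels were 6.14 ± 0.33 (SD, n = 3) and 7.72 ± 0.62, and the difference was 1.58 ± 0.33 (SE; adjusted p = 0.00605). It was 1.93 ± 0.19 without FGSC replicate 3. The call was lost when the arrays were scaled to a common median instead of quantile-normalized (1.38, adjusted p = 0.0657).

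Eif4enif1 was well above background in SSC and higher in FGSC on both of its probes. Probe ILMN_2726950 read 261, 229 and 211 in SSC and 557, 585 and 542 in FGSC, a rise of 1.70 ± 0.14 (SE; adjusted p = 9.84e-05) from 7.20 ± 0.09 (SD, n = 3) to 8.91 ± 0.27. Probe ILMN_2956153 read 508, 479 and 455 in SSC and 1282, 949 and 576 in FGSC, and rose by 0.97 ± 0.18 (adjusted p = 0.00383). The groups did not overlap on either probe. The second probe was not called after median scaling (0.96, adjusted p = 0.0615). The FGSC signals of the second probe differed among the arrays by more than those of the first.

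Lsm14b gave a different picture on each of its probes. The brightest, ILMN_2442914, read 489.6, 406 and 485 in SSC and 3058, 2179 and 169 in FGSC. The first and second FGSC arrays were several times above SSC, and the third was below every SSC array. Levels were 8.57 ± 0.22 (SD, n = 3) in SSC and 9.71 ± 2.45 in FGSC, and the difference of 1.14 ± 1.12 (SE; 95% interval -1.56 to 3.84) was not called (adjusted p = 0.410). Without FGSC replicate 3 it was 2.52 ± 0.18 (adjusted p = 6.20e-05), and with array weights, which count the arrays that deviate most for less, it was 2.30 (adjusted p = 0.00383).

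The dimmer Lsm14b probes did not show that drop. Probe ILMN_2613313 read 101, 103 and 96.7 in SSC and 149.8, 146 and 121 in FGSC, and rose by 1.15 ± 0.08 (adjusted p = 4.82e-05), with no overlap. Probe ILMN_2782663 read 106, 98.1 and 96.8 in SSC and 129, 113 and 103 in FGSC. Its raw signals overlapped, since the third FGSC array lay below the first SSC array, while its normalized levels did not, and it rose by 0.47 ± 0.13 (adjusted p = 0.0176). That call was lost without SSC replicate 1, 2 or 3 (0.45, 0.46 and 0.44, adjusted p = 0.0508, 0.0578 and 0.0557) and after median scaling (0.35, adjusted p = 0.130). Probe ILMN_2676165, at 93.5 to 102.6 in SSC and 89.5 to 100.6 in FGSC, was detected on 1 SSC array only and was not tested. The positions of the probes in the transcript are not given in the sources used here.

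Pabpc1l could not be measured. Its probe read 94.3, 92.7 and 97.5 in SSC and 101.9, 96.2 and 93.8 in FGSC, and was detected on none of the 6 arrays. Both groups were at background and overlapped, so no fold is given, and a low level of the transcript was not detectable with this probe.

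**Figure D2:**
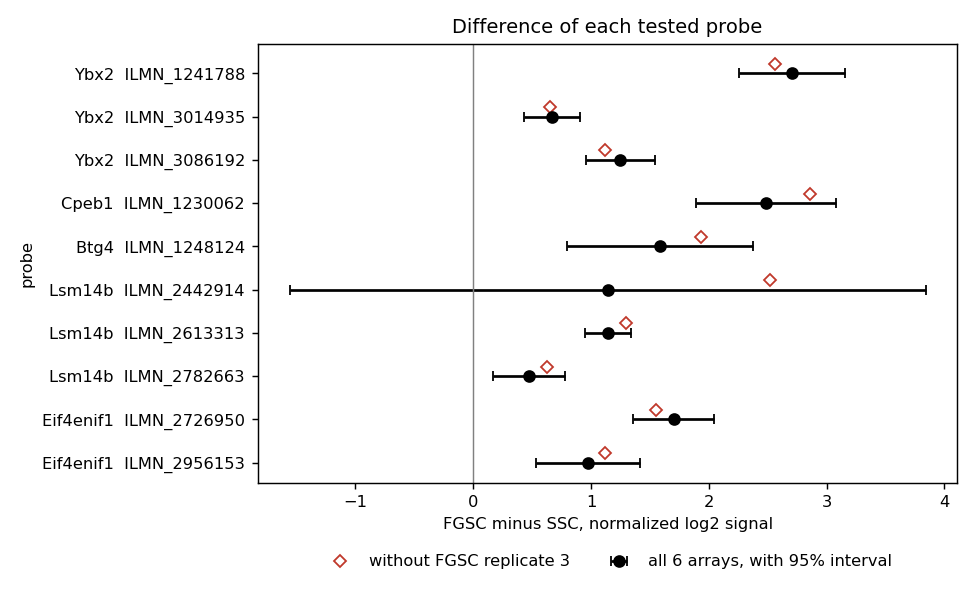
Difference between FGSC and SSC in normalized log2 signal for the 10 tested probes, with the 95% interval of the limma fit over all 6 arrays (filled circles) and the value without FGSC replicate 3 (open diamonds). The interval of the brightest Lsm14b probe reaches from -1.56 to 3.84 and its value moves to 2.52 without that array, while the 3 Ybx2 values move by little.

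The spread among the FGSC arrays differed between the genes. Relative to the mean of FGSC replicates 1 and 2, the level on replicate 3 deviated by -4.23 log2 units for the brightest Lsm14b probe, and 0.03% of tested probes lay lower still. It deviated by -1.07 for Btg4 and -0.88 for Cpeb1, which 2.66% and 3.32% of tested probes exceeded downwards. The other Lsm14b probes deviated by -0.16 and -0.29, and the Ybx2 probes by 0.23 to 0.65 in the opposite direction. Of these, 6 of the 10 tested probes were lowest on replicate 3, against 35.6% of all tested probes. The Eif4enif1 probes lay on either side, at 0.44 and -0.51. In non-normalized signal, replicate 3 carried 1.07, 0.966 and 0.957 times the mean of replicates 1 and 2 on the Ybx2 probes. On the Eif4enif1 probes it carried 0.950 and 0.516 times that mean. The 95th percentile of signal was 403 on FGSC replicate 3, against 577 and 551 on replicates 1 and 2. Quantile normalization gives all arrays the same distribution, so deviations above 0 on replicate 3 depend on it.

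**Figure D3:**
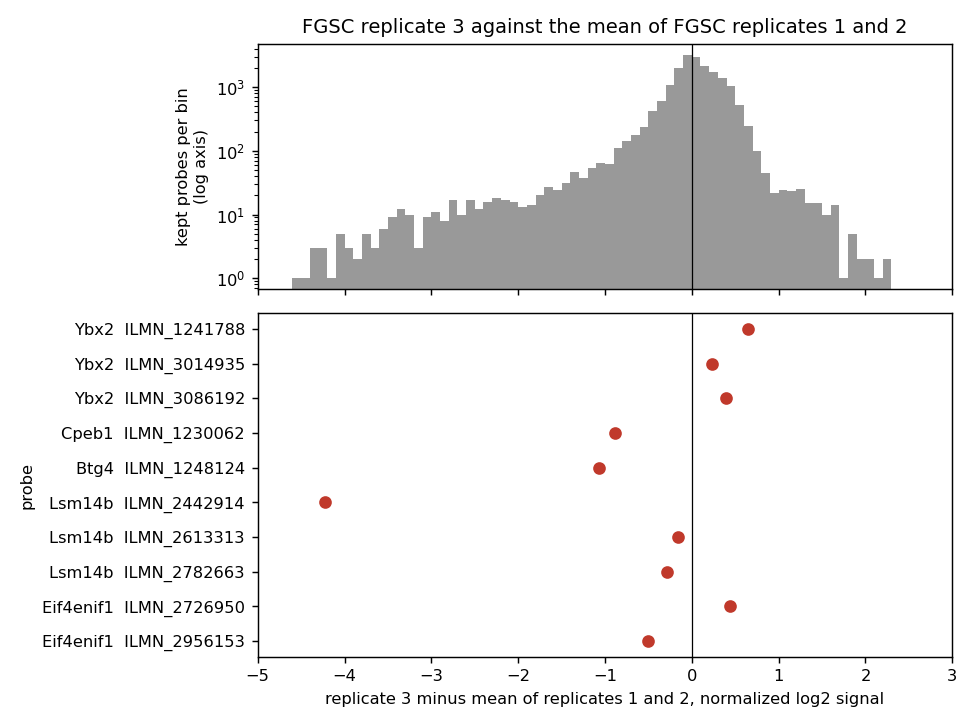
Upper panel, number of tested probes on a log axis by the deviation of FGSC replicate 3 from the mean of FGSC replicates 1 and 2 in normalized log2 signal; lower panel, the same deviation for the 10 tested probes of the mRNA storage genes. The brightest Lsm14b probe lies at -4.23 in the far tail, Btg4 and Cpeb1 at -1.07 and -0.88, and the Ybx2 probes above 0.

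Cell type markers also differed between the groups, in a direction that depended on the list. Of 14 oocyte markers, 13 were tested and 13 were higher in FGSC, 5 of them undetected on every SSC array. Among those 5, Bmp15 and Zp1 were read from probes whose signal broke the order of its detection p-value. The summed signal of the 13 markers, on the linear normalized scale less the offset, was 173 to 188 on the SSC arrays and 33328 to 34406 on the FGSC arrays. Nlrp5, Padi6 and Dppa3 were the brightest in FGSC, at 13.58, 13.12 and 13.11, so they weighed most in the FGSC sum. Oosp1 was the dimmest, at 5.27. On FGSC replicate 3 the 13 oocyte markers deviated by -0.24 to 0.67 on the normalized scale, with a median of 0.11. The brightest Lsm14b probe, Btg4 and Cpeb1 deviated there by -4.23, -1.07 and -0.88. In the lists given below, deviations there ran from -1.43 to 0.52 among paralogs and from -2.28 to 0.61 among decay genes. Among repressor and cap-binding genes they ran from -0.835 to 0.756, and among polyadenylation genes from -0.68 to 0.58. The source of these deviations was not tested. Spermatogonial markers, 7 of 9 tested and each detected on all 3 SSC arrays, counted 6 lower and 1 higher in FGSC, with summed signals of 1928 to 2332 in SSC and 460.1 to 594 in FGSC. The part of these cells in the differences was not tested. In bulk samples, fewer cells of a type and less RNA per cell cannot be told apart.

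Markers of somatic cells were counted by their brightest tested probe, by which 30.9% of all genes were called higher and 31.4% lower. Granulosa and ovarian stroma genes counted 2 higher and 4 lower of 7 tested, with Foxl2 not passing the filter. Their sums were 644 to 734 in SSC and 145 to 224 in FGSC. Amh was the brightest of them in SSC, at 8.54, so it weighed most in the SSC sum. It was undetected on every FGSC array. Since the SSC came from the testis, the SSC sum of this list does not stand for ovarian cells. Sertoli genes counted 2 higher and 3 lower of 6 (252 to 329 in SSC, 146 to 243 in FGSC). The higher ones, Sox9 and Aard, were read from probes whose signal broke the order of its detection p-value. So were Cldn11, not called, and Rhox8, called lower. Another Sox9 probe, which kept that order, was lower in FGSC (-1.80 ± 0.19, adjusted p = 0.000283). Leydig and theca genes counted 0 higher and 3 lower of 4, all 4 undetected on every FGSC array (240.4 to 291 and 41.8 to 44.8). Peritubular and smooth muscle genes counted 0 higher and 3 lower of 4 (231 to 345 and 156 to 177). Of 6 spermatid genes, which matter because Ybx2 also acts in spermatids, 2 were tested and both were called higher in FGSC, close to background. Prm1 stood at 4.82 in SSC and 5.46 in FGSC (0.65 ± 0.12, adjusted p = 0.00336). Odf1 stood at 4.83 and 5.06 (0.23 ± 0.08, adjusted p = 0.0388). The other tested Prm1 probe, undetected on every SSC array, was higher by at least 1.33-fold (adjusted p = 0.0115). The part of these markers in the differences was not tested either.

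Among the paralogs the same direction was not shared by all. Of 16 paralogs 12 were tested, and 5 rose and 3 fell, where by their brightest tested probe 62.3% of all genes were called, 30.9% higher and 31.4% lower. Their median difference was 0.13, against -0.003 over all genes. Ybx1, the broadly expressed relative of Ybx2, stood at 12.47 ± 0.05 (SD, n = 3) in SSC and 12.57 ± 0.15 in FGSC, a difference of 0.10 ± 0.10 (SE; adjusted p = 0.394). Cpeb3, a relative of Cpeb1 known as a repressor in neurons, rose the most of the list, from 7.57, 7.49 and 7.25 on the SSC arrays to 10.60, 10.47 and 10.60 on the FGSC arrays (3.12 ± 0.11, adjusted p = 2.46e-06). Its level was alike on all 3 FGSC arrays, where Cpeb1 was not, and its other tested probe was at least 4.80-fold higher.

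Of the other paralogs that rose, 3 lie outside the rule for named genes and were chosen after their values were seen. Ybx3, the other Y-box relative of Ybx2, rose by 2.38 ± 0.14 (adjusted p = 1.95e-05) on its brightest probe and by 1.68 ± 0.15 (adjusted p = 0.000113) on another, while its remaining tested probe was not called (0.50 ± 0.24, adjusted p = 0.113). Pabpc4, a cytoplasmic poly(A)-binding protein, rose by 1.54 ± 0.09 (adjusted p = 1.93e-05). Tob2 rose by 1.37 ± 0.14 (adjusted p = 0.000230) on its brightest probe and was lower on its other tested probe (-0.78 ± 0.08, adjusted p = 0.000201).

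The remaining named paralogs had smaller differences, or lower levels in FGSC. Cpeb2 rose by 0.38 ± 0.09 (adjusted p = 0.00979) from a level close to background, and that call was lost after median scaling (0.24, adjusted p = 0.137). Btg1, which like Btg4 can bind the deadenylase, differed by -0.25 ± 0.08 (adjusted p = 0.0313), a call lost with the replicate block (adjusted p = 0.0945), after median scaling (-0.13), with the stricter detection filter (adjusted p = 0.0620) and without SSC replicate 1 or 2 or FGSC replicate 1 or 2 (-0.26 to -0.21). Its other tested probe was not called (-0.71 ± 0.27, adjusted p = 0.0585). Tob1, another antiproliferative protein of that family, had the largest called fall of the list, -0.60 ± 0.12 (adjusted p = 0.00493). Lsm14a, at 9.05 ± 0.08 (SD, n = 3) in SSC and 8.83 ± 0.10 in FGSC, was not called (-0.22 ± 0.09, adjusted p = 0.0676), except with an offset of 50, with no background correction, with array weights and without FGSC replicate 3 (-0.32 to -0.18).

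Pabpc1, the main cytoplasmic poly(A)-binding protein, varied within both groups on its brightest probe. That probe read 7.52, 7.63 and 9.29 on the SSC arrays and 7.22, 6.68 and 5.52 on the FGSC arrays. The groups did not overlap, and the difference of -1.67 ± 0.60 (SE) missed the threshold (adjusted p = 0.0510). It passed in 6 other settings, among them without FGSC replicate 1 (-2.02, adjusted p = 0.0404). Its other tested probes showed -0.44 ± 0.12 (adjusted p = 0.0203) and -0.29 ± 0.15 (adjusted p = 0.147). Zar1l had no probe here.

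**Figure D4:**
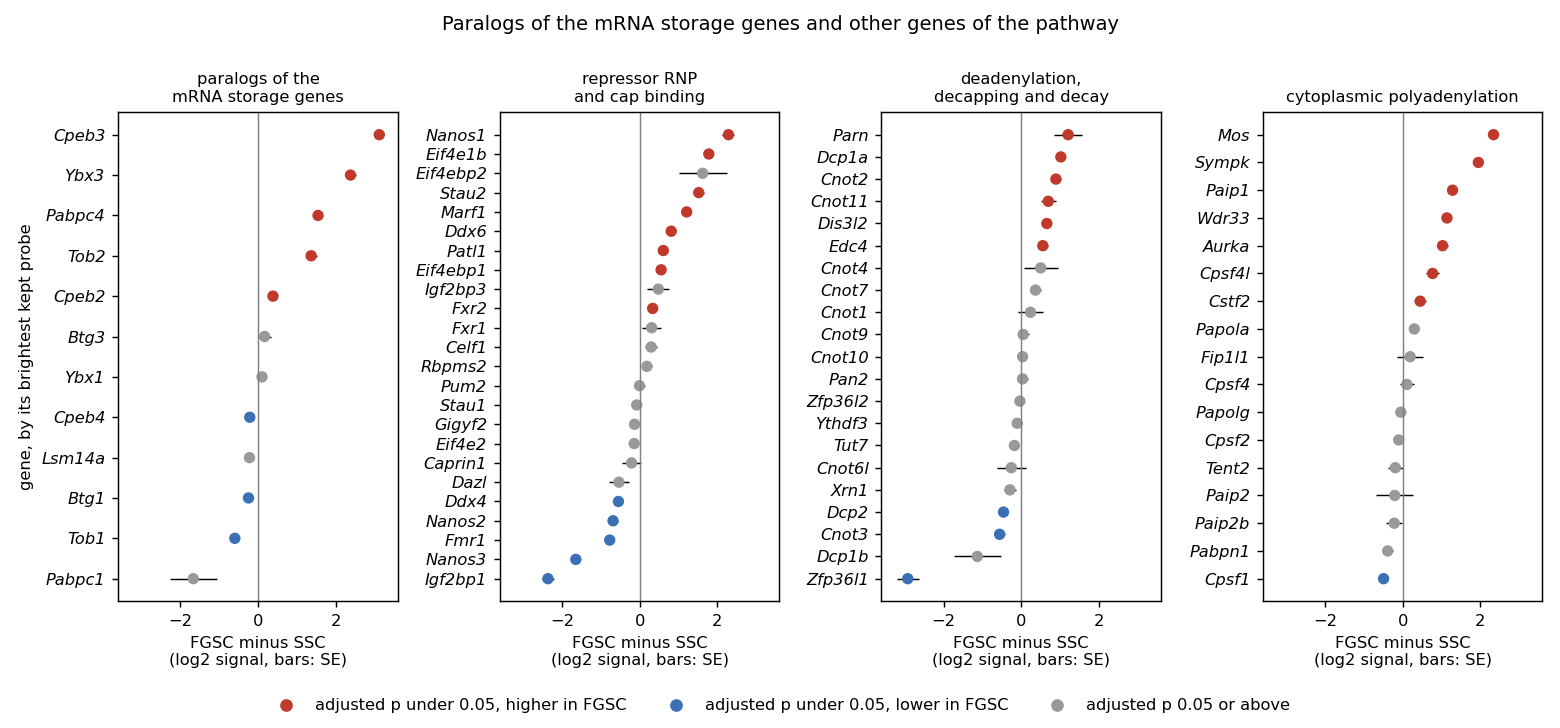
Difference between FGSC and SSC in normalized log2 signal for genes of 4 lists, each by its brightest tested probe, with the SE of the limma fit as bars and colour for the call. Each list holds genes on both sides of 0, with Cpeb3 at 3.12, Nanos1 at 2.29 and Parn at 1.21 among the higher ones. Genes undetected on every array of a group, such as Mos and Igf2bp1, are drawn at their fitted value, which is no exact difference.

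Among the proteins that repress stored RNA or bind its cap, 24 of 30 genes were tested, and 8 rose, 5 fell and 11 were not called, with a median difference of 0.24. For this list and the lists of decay and polyadenylation genes the counts stand beside 30.9% of all genes called higher and 31.4% lower, and nothing particular to a list is read from them. The largest rise was that of Nanos1, an RNA-binding repressor that works with Pumilio proteins, from 5.62 ± 0.03 (SD, n = 3) to 7.90 ± 0.31 (2.29 ± 0.15 SE, adjusted p = 3.70e-05). The largest fall was that of Igf2bp1, which protects bound messenger RNAs from decay. It read 7.12, 6.84 and 7.48 on the SSC arrays, was undetected on every FGSC array, and was at least 4.97-fold lower in FGSC (adjusted p = 3.84e-05), and its 3 other tested probes were also lower. Of the tested genes of this list 3 were undetected on every array of 1 group.

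Genes of deadenylation, decapping and decay, with which Btg4 acts, counted 6 higher, 3 lower and 12 not called among 21 tested of 27, with a median of 0.04. Parn, a poly(A)-specific ribonuclease, had the largest called rise (1.21 ± 0.36, adjusted p = 0.0272), on a probe whose signal broke the order of its detection p-value, while its other tested probes were lower in FGSC, 1 by -0.81 ± 0.16 (adjusted p = 0.00425) and the other, undetected on every FGSC array, by at least 1.11-fold (adjusted p = 0.0267). The call for Parn was lost in 6 settings, including without SSC replicate 1 (1.27), FGSC replicate 2 (1.25) or FGSC replicate 3 (1.04), with the replicate block (adjusted p = 0.0684), with no detection filter (adjusted p = 0.0771) and after median scaling (0.98). Zfp36l1, which binds AU-rich elements and promotes decay, differed by -2.92 ± 0.28 (adjusted p = 0.000170), while another of its probes, which also broke that order, rose by 1.46 ± 0.37 (adjusted p = 0.0140), and its remaining tested probe was not called (0.04 ± 0.08). With array weights the list held 9 higher and 5 lower genes.

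The cytoplasmic polyadenylation genes, with which Cpeb1 acts, counted 7 higher, 1 lower and 9 not called among 17 tested of 20, with a median of 0.19. Mos, the kinase whose stored transcript is activated by polyadenylation in maturing oocytes, was undetected on every SSC array and read 6.93, 6.84 and 7.17 on the FGSC arrays. In FGSC it was higher by at least 4.71-fold (adjusted p = 5.62e-06), and it passed the filter through FGSC alone. Cpsf1, the largest subunit of the cleavage and polyadenylation factor, differed by -0.49 ± 0.10 (adjusted p = 0.00550), a call lost after median scaling (-0.62, adjusted p = 0.0885), and its other tested probe showed 0.30 ± 0.16 and was not called. Median scaling left 5 higher and 0 lower genes in this list, and 4 higher and 1 lower among the paralogs.

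The genes with the nearest pattern to each probe were found by the root mean square distance over the 6 arrays after each probe was centred on its own mean, among 10623 genes. For the 9 called probes the distances were 0.03 to 0.16, against medians of 0.40 to 1.38 over all genes. The nearest genes were picked as the smallest distances, so they lie below those medians by construction. Nothing about shared regulation is read from them. The nearest genes to the brightest-responding Ybx2 probe, ILMN_1241788, were Birc5 and Ankrd36, those to ILMN_3086192 were Klc1 and Tuba4a, and those to ILMN_3014935 were Shkbp1 and Adra2c. For Cpeb1 they were Slc35f3 and Lypd3, and for Btg4 Tdrd3 and Ube2a. For Eif4enif1 they were Selenow and Lrrfip2 on one probe and Commd1 and Oxr1 on the other, and for the called Lsm14b probes Cyld, Espl1, Ift80 and Ccdc66. The brightest Lsm14b probe had no such close neighbour: Stat3 and E2f5 were nearest at 0.31 and 0.32. They were read from probes that were not called either (0.56 ± 1.11 and 0.83 ± 0.96).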

How the data were processed

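The authors deposited non-normalized bead signals (intensity) with detection p-values, per the file headers, and a second table of processed intensity that was read as background-adjusted and quantile-normalized and used as an alternative only. Its scale and centring are not stated; each of its columns has a median of 19.9. The submitters' processing notes name lumi, with no version or role.

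Background was removed with limma's neqc, which fits a normal-exponential model to control levels inferred from detection p-values and adds an offset of 16, and arrays were quantile-normalized on the log2 scale (limma 3.58.1, R 4.3.3). Probes detected at 0.05 on at least 3 of 6 arrays (18860) were fitted with lmFit and eBayes, with no covariate. A probe undetected on every array of a group has only a bound there. Names came from the platform annotation, updated through RefSeq gene tables (34807 probes matched by gene ID, 11 by transcript, 67 kept the older name). The brightest tested probe stood for a gene in lists. The rule for named genes took, from each list, the strongest called rise and the strongest called fall, plus 1 paralog per member. The members and lists were chosen with earlier results of these data known. The fit was tested on simulated data. The number of arrays limits the precision. Same-numbered arrays did not deviate together (r = -0.22, -0.04 and -0.23). Alternatives covered scaling, background, filter, probes, block, weights and left-out arrays. Protein sequences were not used here.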

Additional observations from a re-analysis of the deposited data

How the results depend on the processing

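Over 150 repeats of the 10 probe differences, 142 stayed on their side of the threshold, 6 lost their call and 2 gained one, and none changed direction. Of the probes, 9 were called in each setting other than median scaling (6), array weights (10), and these: a detection p under 0.01 on all 6 arrays left 5 probes to test, of which 4 were called, and 1 probe a gene likewise left 5, of which 4 were called, in both cases because fewer probes entered. Leaving out 1 array gave 8 to 10. Over all probes 11126 probes were called, 49.9% of them higher, and 9337 to 11707 with 1 array left out; the strict filter gave 6826 of 10996 tested and 1 probe a gene 6632 of 10628. Median scaling moved the median of all probes to -0.12 and the share higher to 38.2%. Without background correction the 9 called differences ranged from 0.21 to 1.3, against 0.47 to 2.70, since background then stays in every signal. With the replicate block 9 probes were called here and 9733 overall; the numbers mark no shared litter or batch in the labels, and it changed no call among these probes. The difference of the brightest Lsm14b probe was 0.33 without FGSC replicate 1 and 2.52 without FGSC replicate 3. For the other genes named, 178 repeats kept their side of the threshold, 15 lost a call and 10 gained one. Signals near background limit Ybx2, Cpeb1, Pabpc1l and the dim Lsm14b probes.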
